A study of Mus musculus with 6 samples.

Results

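AMPA receptors are the glutamate-gated channels that carry most fast excitatory transmission in the cortex. The 9 genes described here are the 4 pore-forming subunit genes (Gria1 to Gria4) and 5 auxiliary subunit genes (Cacng2, Cacng3, Cacng8, Cnih2 and Cnih3). They were chosen by name from the 55385 genes of the count files, with Ensembl identifiers mapped to mouse symbols, and all 9 passed the filter on low counts.

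Total RNA freed of ribosomal RNA was sequenced from mouse primary cortical neurons, taken from embryonic day 18 cortex and kept for 16 days in vitro, with 3 libraries per group. All cultures, the controls included, received AraC, an inhibitor of DNA synthesis, at 2.5 uM for 24 hours from day 2. The libraries labelled Activated came from cells exposed to KCl for 5 minutes, washed, and left for 30 minutes before harvest. The stated KCl concentration differs between label fields, 50 mM in the protocol and 50 uM in the treatment entry. Control libraries are labelled as untreated. No strain is named, and nothing states that replicates came from separate animals or cultures: the p-values therefore cover only the spread among these 6 libraries, which may be technical. In bulk RNA, fewer cells of a type and less RNA per cell cannot be told apart.

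Reads assigned to genes numbered 17752711 to 32740171 in Activated and 22994946 to 32919975 in Control libraries, and Activated replicate 1 was the shallowest. Levels are given as CPM, a gene's reads relative to the reads of all genes past the low-count filter in its library, after TMM scaling. Genes that neurons switch on within minutes of activity went against the labels: Arc averaged 48.9 ± 2.92 CPM in Activated and 176 ± 11.8 CPM in Control libraries, and Npas4 44.3 ± 3.15 and 159 ± 11.1 CPM (SD, n = 3 each). Fosb (log2 fold change −2.39) and Fos (−1.16) were lower too, as were all 10 genes of a rapid activity list. The directions given here follow the labels as they stand; the labels may be exchanged between groups, which was not tested, and every rise, fall and difference in share would then turn round. Neuron markers were abundant, although 8 of 16 excitatory markers were lower and 1 higher (median log2 fold change −0.29), and 12 of 18 inhibitory markers lower and none higher (−0.52). These counts are of genes with an adjusted p below 0.05 in edgeR. Over all 18132 tested genes, 16.2% were higher and 20.6% lower by that rule. The most abundant excitatory markers were Camk2a (1280 ± 104 CPM in Activated, 1000 ± 67.6 CPM in Control), the one that was higher, and Slc17a7 (523 ± 54.9 and 475 ± 15.8 CPM). Reln, an inhibitory marker that did not pass, stood at 608 ± 44.8 CPM in Activated and 598 ± 24.0 CPM in Control libraries. Markers of other cells were present as well. Summed over 16 astrocyte markers, led by Slc1a2 and Apoe, they reached 2060 to 2530 CPM in Activated and 1540 to 1610 CPM in Control libraries, and 14 of the 15 tested were higher. Mitochondrial transcripts took 21.3% to 25.0% of gene reads in Activated and 14.7% to 17.1% in Control libraries.

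An AMPA receptor is a tetramer of GluA subunits, each encoded by one Gria gene, and its subunit mix sets how much calcium it passes. GluA2, the product of Gria2, blocks calcium entry once its transcript has been edited at a single codon of the pore loop by the deaminase ADARB1. The transmembrane AMPA receptor regulatory proteins (TARPs), encoded by the Cacng genes, and the cornichons, encoded by the Cnih genes, carry the receptors to the surface, hold them at synapses and slow their closing. The coding sequence around this codon is shown for Gria2, with the matching stretch of the other Gria genes. Editing of the Gria2 codon sets calcium passage, and the stretch shows how alike the counted transcripts are. Each window gives the codon in capitals with 24 bases on either side, on the sense strand, from GENCODE M21 transcripts (mm10), and each crosses an exon junction.
Gria1: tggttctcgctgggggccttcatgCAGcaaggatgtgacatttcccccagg
Gria2: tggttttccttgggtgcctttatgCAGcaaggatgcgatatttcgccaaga
Gria3: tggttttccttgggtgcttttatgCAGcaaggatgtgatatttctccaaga
Gria4: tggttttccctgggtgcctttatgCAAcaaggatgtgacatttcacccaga
The codon lies at chr11:57243094-57243096 (plus strand) in Gria1, chr3:80706911-80706913 (minus) in Gria2, chrX:41610265-41610267 (plus) in Gria3 and chr9:4464137-4464139 (minus) in Gria4. Even in this conserved stretch the 4 genes could be told apart: Gria2 and Gria3 matched at 48 of 51 bases (94.1%), the closest pair, and Gria1 matched Gria2 at 41 (80.4%). Counts per gene carry no information on whether the codon was edited.

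Across the 9 genes, 2 were higher and 1 was lower in Activated libraries by edgeR's quasi-likelihood test at an adjusted p below 0.05. Over all 18132 genes tested, 36.8% passed by the same rule, 16.2% higher and 20.6% lower, so the members' counts were near the background share. Their median log2 fold change was 0.01, beside 0.04 over all tested genes. The 3 that passed were the pore subunit genes Gria2 and Gria3, which rose, and the TARP gene Cacng2, which fell.

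Gria2 (ENSMUSG00000033981.14, chromosome 3, 80681450 to 80802835, minus strand) had 830, 872 and 835 CPM in Activated replicates 1, 2 and 3, against 726, 709 and 742 CPM in Control replicates 1, 2 and 3. Every Activated library lay above every Control library, as for 22.6% of tested genes (49% did not overlap in one direction or the other). The rise was 1.17-fold, a log2 fold change of 0.22 (SE 0.06, adjusted p = 0.0133 in edgeR), and it was higher in 3 of 3 libraries. It kept its call with each library left out in turn (0.20 to 0.24), but lost it with libraries scaled by total counts only (0.15, edgeR adjusted p = 0.0589) and with offsets for transcript length and GC content (0.00, edgeR adjusted p = 0.984).

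Gria3 (ENSMUSG00000001986.16, chromosome X, 41400854 to 41678601, plus strand) encodes a subunit that often pairs with GluA2. It stood at 257, 255 and 265 CPM in Activated and 231, 217 and 233 CPM in Control libraries, again without overlap between groups. Its log2 fold change of 0.19 (SE 0.06, adjusted p = 0.0224 in edgeR) was a 1.14-fold rise. Among other settings, the call was lost without Control replicate 2 (0.17) or Activated replicate 1 (0.19), with total counts only (0.12), with no low-count filter (0.17), with unstranded counts (0.16) and with the length and GC offsets (0.06).

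Gria1 (ENSMUSG00000020524.16, chromosome 11, 57011387 to 57330244, plus strand), whose subunit is inserted at synapses during potentiation, had 560, 514 and 518 CPM in Activated and 544, 528 and 546 CPM in Control libraries. The groups overlapped, and the log2 fold change of −0.03 had a 95% interval of −0.16 to 0.11. Gria4 (ENSMUSG00000025892.16, chromosome 9, 4417896 to 4796234, minus strand), prominent in fast-spiking interneurons, had 173, 160 and 160 CPM in Activated and 157, 160 and 171 CPM in Control libraries. Here too the groups overlapped, with a log2 fold change of 0.01 (95% interval −0.12 to 0.15). Neither gene passed the test.

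**Figure D1:**
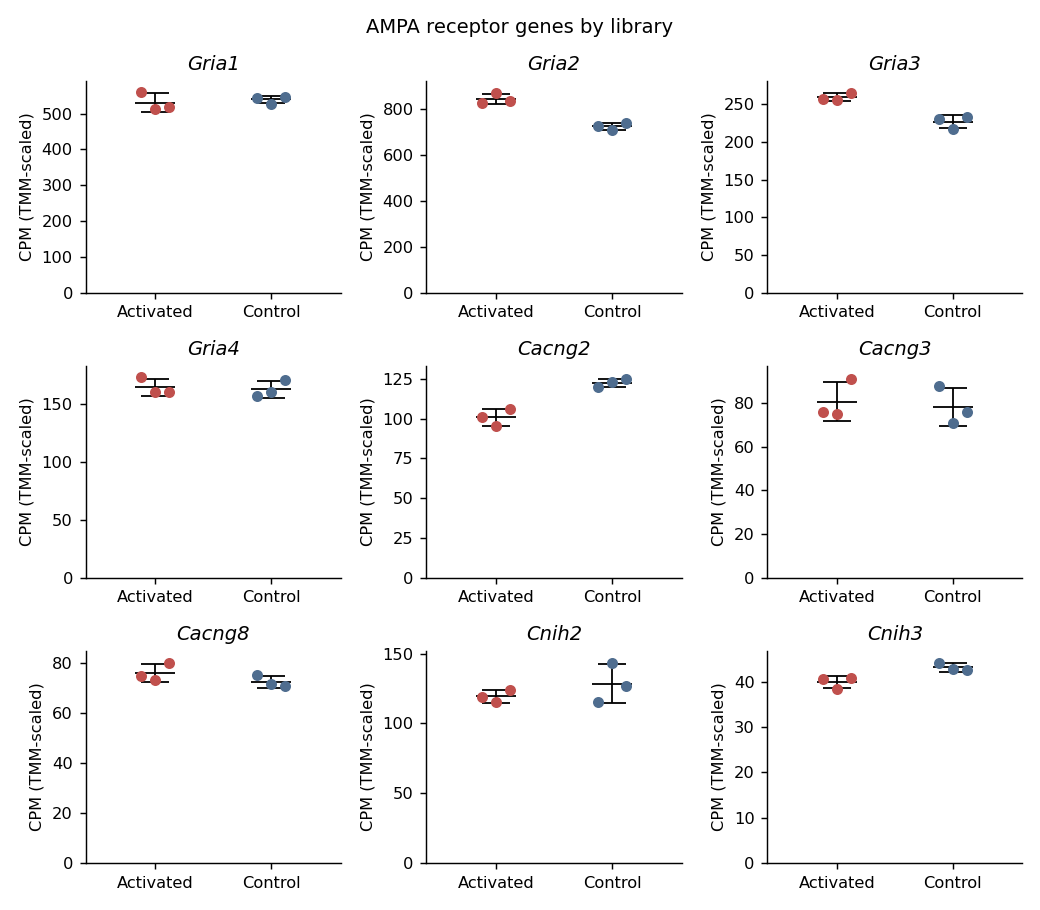
CPM (scaled by TMM, axes from 0) of each of the 9 genes in the 3 Activated (red, left) and 3 Control (blue, right) libraries; points are libraries, and black marks are mean and SD. Gria2 and Gria3 sit higher and Cacng2 and Cnih3 lower in every Activated library than in every Control library, while the other 5 genes overlap. Of all tested genes, 22.6% lay higher and 26.4% lower without overlap.

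Cacng2 (ENSMUSG00000019146.2, chromosome 15, 77991748 to 78120028, minus strand) encodes stargazin, the founding TARP, which tethers AMPA receptors to the postsynaptic scaffold. Its level was 101, 95.6 and 106 CPM in Activated and 120, 123 and 125 CPM in Control libraries. All 3 Activated libraries lay below all Control libraries, as for 26.4% of tested genes. The level was 0.824 times that of Control, with a log2 fold change of −0.28 (SE 0.06, adjusted p = 0.00294 in edgeR). It passed without each library in turn (−0.32 to −0.24) and with the length and GC offsets (−0.31). It turned to 0.04 with no call (edgeR adjusted p = 0.544) when libraries were scaled to the neuron marker lists, a scaling that moved the median of all genes to 0.37. In the same libraries the summed level of the 18 inhibitory neuron markers was 2450 to 2740 CPM in Activated and 3160 to 3280 CPM in Control libraries. The 16 excitatory markers had sums of 2620 to 2830 CPM in Activated and 2520 to 2640 CPM in Control libraries. Camk2a was the largest part of these sums, at 1280 ± 104 CPM in Activated and 1000 ± 67.6 CPM in Control libraries (SD). It was the only 1 of the 16 that was higher, while 8 were lower, so the sums do not show the direction of most of these markers. The part of cell makeup in the fall of Cacng2, or in the rise of Gria2 and Gria3, was not tested.

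Neither of the other TARP genes among the members passed. Cacng3 (ENSMUSG00000066189.9, chromosome 7, 122670492 to 122769393), a cortical TARP closely related to stargazin, had 75.7, 75.0 and 91.1 CPM in Activated and 87.9, 70.8 and 75.8 CPM in Control libraries. One high library in each group made it the member with the widest error, and its log2 fold change was 0.05 (95% interval −0.15 to 0.24). Cacng8 (ENSMUSG00000053395.15, chromosome 7, 3390683 to 3415648), the TARP most abundant in hippocampus, had 75.0, 73.3 and 80.2 CPM in Activated and 75.3, 71.8 and 70.7 CPM in Control libraries. These overlapped as well (log2 fold change 0.07, 95% interval −0.06 to 0.20).

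Both cornichon genes had negative values that did not pass. Cnih2 (ENSMUSG00000024873.7, chromosome 19, 5092868 to 5098521) had 119, 115 and 124 CPM in Activated and 115, 143 and 127 CPM in Control libraries, so that its spread came mainly from Control replicate 2. Its log2 fold change was −0.11 (95% interval −0.27 to 0.05), and it was −0.01 without Control replicate 2 and −0.17 without Control replicate 1. Cnih3 (ENSMUSG00000026514.14, chromosome 1, 181352628 to 181460641), the least abundant member, had 40.6, 38.3 and 40.8 CPM in Activated and 44.2, 42.8 and 42.5 CPM in Control libraries. The groups did not overlap, yet the log2 fold change of −0.11 ± 0.06 (SE) missed the threshold (edgeR adjusted p = 0.169). With total counts only Cnih3 passed, at −0.18 (edgeR adjusted p = 0.0306). Even this member rested on 682 to 1300 reads per Activated and 1010 to 1437 per Control library.

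The direction of several members depended on how libraries were scaled. With libraries scaled to the 34 neuron markers, 8 of the 9 members were higher and none lower, where 54.5% of all tested genes passed, 51.4% as higher and 3.11% as lower. Gria2 and Gria3 then stood at 0.55 and 0.52, and Cacng2, at 0.04, was the member that did not pass. Against the shifted median of 0.37, Cacng2 and both cornichon genes (Cnih2 0.22, Cnih3 0.21) stood below and Gria2 and Gria3 above. Because this scaling moved all genes by nearly the same amount, their place around the median repeats the main fit. With total counts only no member was higher and 2 were lower, Cacng2 (−0.35) and Cnih3, where 36.8% of tested genes passed, 11.5% as higher and 25.2% as lower.

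**Figure D2:**
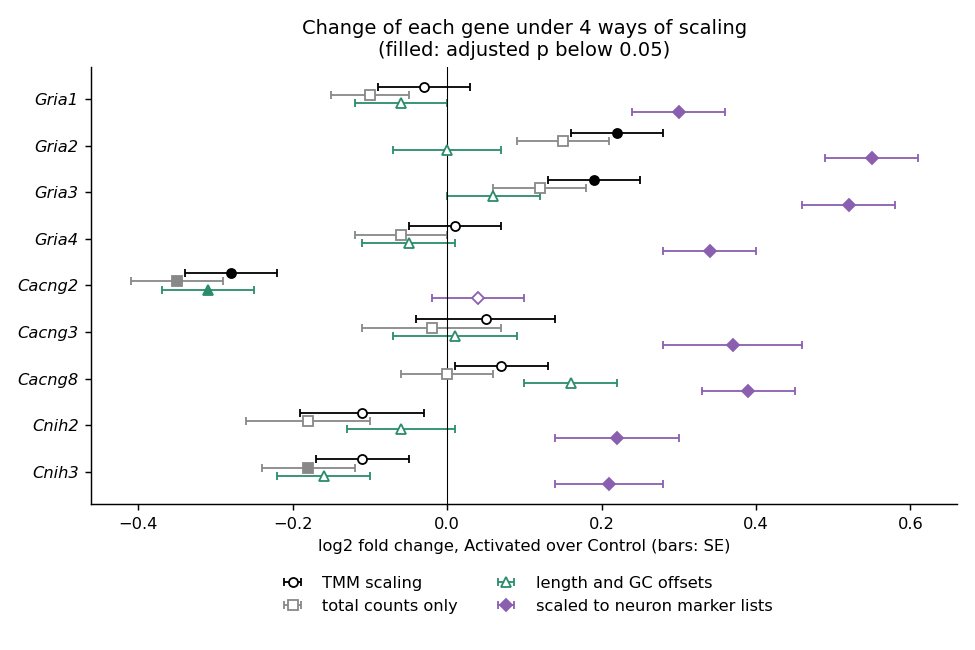
Log2 fold change of each member, Activated over Control (x axis; bars are SE), under TMM scaling (circles), total counts only (squares), offsets for transcript length and GC content (triangles) and scaling to the neuron marker lists (diamonds). Filled marks have an adjusted p below 0.05; Gria2 lies at 0.22 under TMM, 0.00 with the offsets and 0.55 with the neuron markers, and Cacng2 at −0.28, −0.31 and 0.04.

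The GC content and length of the members' transcripts were set beside their values. The longest Gria2 transcript, 10.4 kb with 36.8% G and C, had a lower GC content than all but 3.05% of tested genes and was longer than 98.0% of them, and that of Gria3, with 39.8%, had a lower GC content than all but 9.57%. With genes split into 5 equal bins of GC content, those of the lowest bin (24.8% to 42.7%) had a median log2 fold change of 0.16, with 20.0% higher and 15.0% lower, whereas the highest bin (55.0% to 84.2%) had a median of −0.01, with 15.2% higher and 23.3% lower. By length the medians ran the other way and differed less, at 0.03 in the longest of 5 bins and 0.07 in the shortest, with 21.5% higher in the longest and 10.6% in the shortest. Cacng2, at 51.2% GC, lay in the next-highest GC bin, whose median was 0.01 with 22.7% of genes lower. With both properties as offsets Gria2 was at 0.00, Gria3 at 0.06 and Cacng2 at −0.31; what causes the relation with GC content was not tested.

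**Figure D3:**
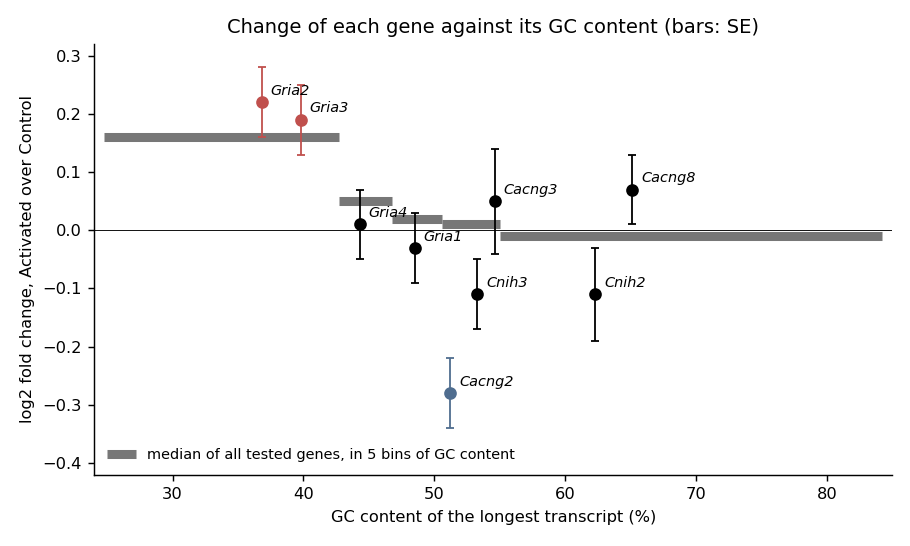
Log2 fold change of each member (points with SE; red rose, blue fell, black did not pass) against the GC content of its longest transcript in percent, with grey bars for the median log2 fold change of all tested genes in each of the 5 bins of GC content. Gria2 (0.22) and Gria3 (0.19) lie in the lowest bin, whose median was 0.16, and Cacng2 (−0.28) lies below the median of 0.01 of its bin.

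Levels between genes were compared per kilobase of merged exons. In Activated libraries Gria1 led at 87.8 ± 4.17 CPM per kb, Cnih2 stood at 87.2 ± 3.41 and Gria2 at 54.4 ± 1.46; in Control libraries they were at 89.3 ± 1.62, 94.0 ± 10.2 and 46.7 ± 1.04 CPM per kb (SD, n = 3 each). Gria1 and Cnih2 did not differ beyond their spread in either group. Cacng8 (32.5 ± 1.54 in Activated, 31.0 ± 1.02 in Control) and Cacng3 (29.0 ± 3.28 and 28.1 ± 3.17) came next and overlapped, followed by Gria3 (26.3 ± 0.564 and 23.0 ± 0.898) and Gria4 (26.1 ± 1.24 and 25.8 ± 1.14 CPM per kb). Gria3 and Gria4 overlapped in Activated libraries, whereas in Control libraries Gria4 lay above Gria3 in all 3. Cacng2 was the least abundant of the 3 TARP genes, at 18.3 ± 0.941 CPM per kb in Activated and 22.2 ± 0.427 in Control libraries, and Cnih3 was lowest of all at 14.5 ± 0.496 and 15.7 ± 0.326. The order depends on the length used: per kilobase of the longest transcript, Gria3 stood at 49.8 in Activated and 43.6 CPM per kb in Control libraries, above Cacng8 (40.1 and 38.3), and Gria2 at 81.6 and 70.0.

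Among the pore-forming genes, the shares of Gria2 and Gria3 were larger in every Activated than in every Control library. Of the summed per-length level of the 4 Gria genes, Gria2 made up 26.8%, 29.2% and 28.0% in Activated replicates 1, 2 and 3, against 25.2%, 25.3% and 25.2% in Control replicates 1, 2 and 3. Gria1 made up 46.4%, 44.2% and 44.7% in Activated and 48.6%, 48.5% and 47.9% in Control libraries. The groups did not overlap for either share, a difference of 2.73 percentage points for Gria2 and −3.21 for Gria1 (exact two-sided permutation p = 0.1 each, the smallest that 3 against 3 libraries allow). Gria3 took 13.5% ± 0.49 in Activated and 12.5% ± 0.23 in Control libraries (SD, n = 3 each), also without overlap, and Gria4 took 13.8%, 13.2% and 13.2% in Activated and 13.5%, 14.1% and 14.4% in Control libraries, which overlapped (exact two-sided permutation p = 0.2). These shares are free of library scaling but not of transcript length and GC content. The size of a share depends on the length used: per kilobase of the longest transcript, Gria2 made up 31.7% in Activated and 29.1% in Control libraries. The log2 ratio of the 5 summed auxiliary genes to the 4 summed Gria genes averaged −0.10 ± 0.09 in Activated and 0.05 ± 0.08 in Control libraries (SD, n = 3 each), a difference of −0.15 (exact two-sided permutation p = 0.2, where 0.1 is the smallest possible).

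**Figure D4:**
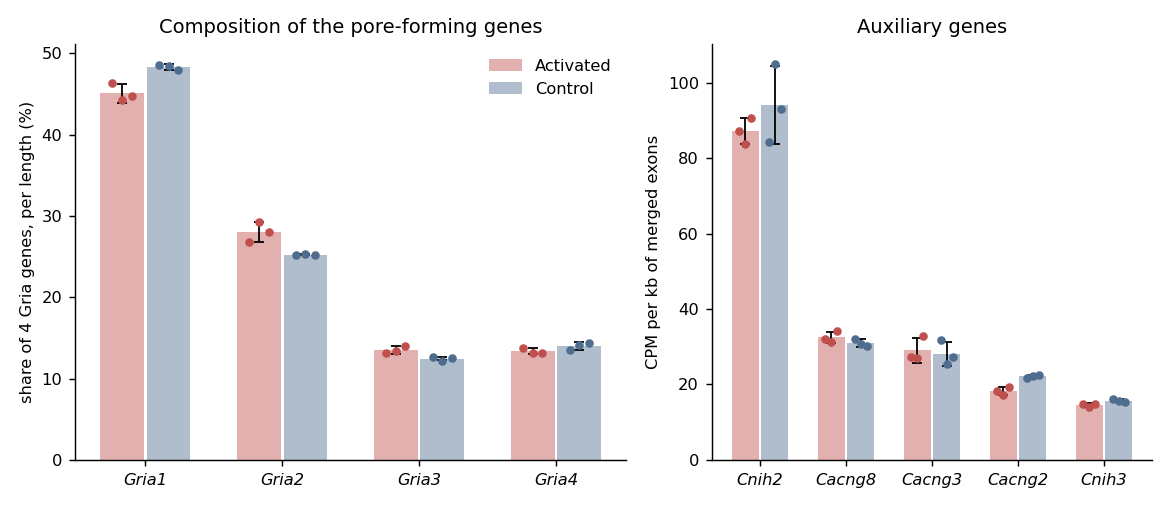
Left, share of each Gria gene in the summed per-length level of the 4 Gria genes, in percent; right, level of the 5 auxiliary genes in CPM per kb of merged exons; bars are means of 3 libraries, whiskers SD and points libraries, with Activated in red left of Control in blue. Gria2 averages 28.0% in Activated and 25.3% in Control libraries, and Gria1 45.1% and 48.3%.

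Reads on the opposite strand made up 4.05% to 4.29% of gene reads on both strands across the libraries, but far less of the members' reads. Gria1 had 0.0522% in Activated and 0.0453% in Control libraries, and the highest was Cacng2, with 1.24% and 1.18%. Cacng2 shares 323 exon bases with A730060N03Rik on the opposite strand, which averaged 7.96 CPM in Activated and 8.73 CPM in Control libraries and did not pass (log2 fold change −0.15). Cnih2 shares 14 exon bases with Yif1a, also on the opposite strand, and Gria2, Gria3, Gria4 and Cacng8 contain annotated miRNA genes on their own strand.

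Genes that work with AMPA receptors were counted in 4 lists, 41 genes in all, every one of them tested. Of these 2 were higher and 12 lower, with a median log2 fold change of −0.06, beside the 16.2% higher and 20.6% lower of all tested genes. The count of lower genes rested on borderline members: it was 5 to 12 when single libraries were left out (5 without Control replicate 1, 6 without Control replicate 2 and 7 without Control replicate 3, where 17.4%, 15.2% and 15.9% of all tested genes were lower), and the count of higher genes 1 to 5. The lists were chosen with earlier results of these data known.

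Postsynaptic scaffold and trafficking genes held most of the decreases, with 8 of 12 lower, none higher and a median log2 fold change of −0.20. Of all tested genes 20.6% were lower and 16.2% higher. Akap5, the anchor that brings protein kinase A and calcineurin to GluA1, had 91.4, 89.9 and 88.9 CPM in Activated and 142, 146 and 163 CPM in Control libraries. Its log2 fold change was −0.74 (SE 0.07, adjusted p = 1.04e-05 in edgeR). Nsf, the ATPase that binds the GluA2 tail and keeps receptors at the surface, had 309, 274 and 316 CPM in Activated and 455, 451 and 459 CPM in Control libraries (log2 fold change −0.60 ± 0.07, SE). Dlg3, a scaffold of the PSD-95 family, had a log2 fold change of −0.60 ± 0.06 as well. Every Activated library lay below every Control library for these 3 genes, as for 26.4% of tested genes. Each of the 3 passed under every alternative run. Under the neuron marker scaling they were the only lower genes of the 41, where 3.11% of tested genes were lower. They then stood at −0.41 for Akap5, −0.28 for Nsf and −0.28 for Dlg3.

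The remaining 5 scaffold genes that fell did so by less. They were Grip1 (−0.24) and Grip2 (−0.21), whose PDZ domains bind GluA2, their endosomal partner Gripap1 (−0.24), Dlg4 (−0.18), which encodes PSD-95, the TARP-binding scaffold, and Epb41l1 (−0.18), which links GluA1 to actin. Each lost its call without at least one library. Under the neuron marker scaling, which moved all genes nearly alike, they stood at 0.08 to 0.14, below the median of 0.37 as in the main fit. Dlg4 and Epb41l1 then passed as higher (0.14 each, edgeR adjusted p = 0.0481 and 0.0463), where 51.4% of tested genes were higher. Pick1 (0.09), Dlg1 (−0.01), Dlg2 (−0.10) and Nsg1 (−0.07) did not pass.

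Both RNA editing genes were lower, where 20.6% of all tested genes were lower and 16.2% higher. Adar fell to 132 ± 6.31 CPM in Activated, against 162 ± 4.34 CPM in Control libraries (SD, n = 3 each). The log2 fold change was −0.29 (SE 0.06, adjusted p = 0.00204 in edgeR). Adarb1, whose product edits the Gria2 pore codon shown above, had 157, 161 and 163 CPM in Activated and 182, 189 and 177 CPM in Control libraries. Adarb1 lay lower without overlap between groups, as did 26.4% of tested genes. Its log2 fold change of −0.19 ± 0.06 (SE) did not hold when Control replicate 1 (−0.19) or 2 (−0.15) or Activated replicate 1 (−0.17) was left out. Under the neuron marker scaling Adar was at 0.03 and Adarb1 at 0.14, and neither passed. Both lay below the median of 0.37 over all genes, as in the main fit, because this scaling moved all genes nearly alike. Of the 6 assembly genes in the same list, Porcn, an acyltransferase found with AMPA receptors, rose (0.22), but did not pass when Control replicate 2 (0.18) or 3 (0.22) or Activated replicate 1 (0.19) or 3 (0.20) was left out. Frrs1l, needed for receptor assembly in the endoplasmic reticulum, stood at 212 ± 18.8 CPM in Activated and 213 ± 4.90 CPM in Control libraries.

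Among 11 further auxiliary genes none rose and 2 fell, near the 20.6% lower of all tested genes (16.2% were higher). Syndig1, a transmembrane partner of AMPA receptors at young synapses, had 20.5, 20.1 and 22.2 CPM in Activated and 25.5, 28.1 and 26.1 CPM in Control libraries (log2 fold change −0.34, SE 0.08, adjusted p = 0.00381 in edgeR). Cacng4, another TARP gene, had 62.4, 64.9 and 73.8 CPM in Activated and 79.4, 79.7 and 76.9 CPM in Control libraries. Its log2 fold change of −0.23 no longer passed when Control replicate 1 (−0.21) or 2 (−0.20) or Activated replicate 1 (−0.18) or 2 (−0.20) was left out, and with the neuron marker scaling it became 0.10. Syndig1 was then at −0.02 (edgeR adjusted p = 0.877). Both genes lay below the median of 0.37 over all genes, as in the main fit, because this scaling moved all genes nearly alike. Shisa7 (0.13), of the CKAMP family, was next by p and did not pass.

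Of 10 extracellular partners only Lrrtm4, a postsynaptic adhesion protein gene, passed, where 36.8% of all tested genes did. It had 90.2, 90.0 and 84.6 CPM in Activated and 74.4, 69.1 and 79.4 CPM in Control libraries, with a log2 fold change of 0.25 (SE 0.07, adjusted p = 0.0101 in edgeR). Without overlap between groups, as for 22.6% of tested genes in this direction, it rose as Gria2 did. Like Gria2, it lost its call with total counts only (0.18) and with the length and GC offsets (0.07). The noelin gene Olfm2 (0.11) and the pentraxin receptor gene Nptxr (0.09) did not pass.

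**Figure D5:**
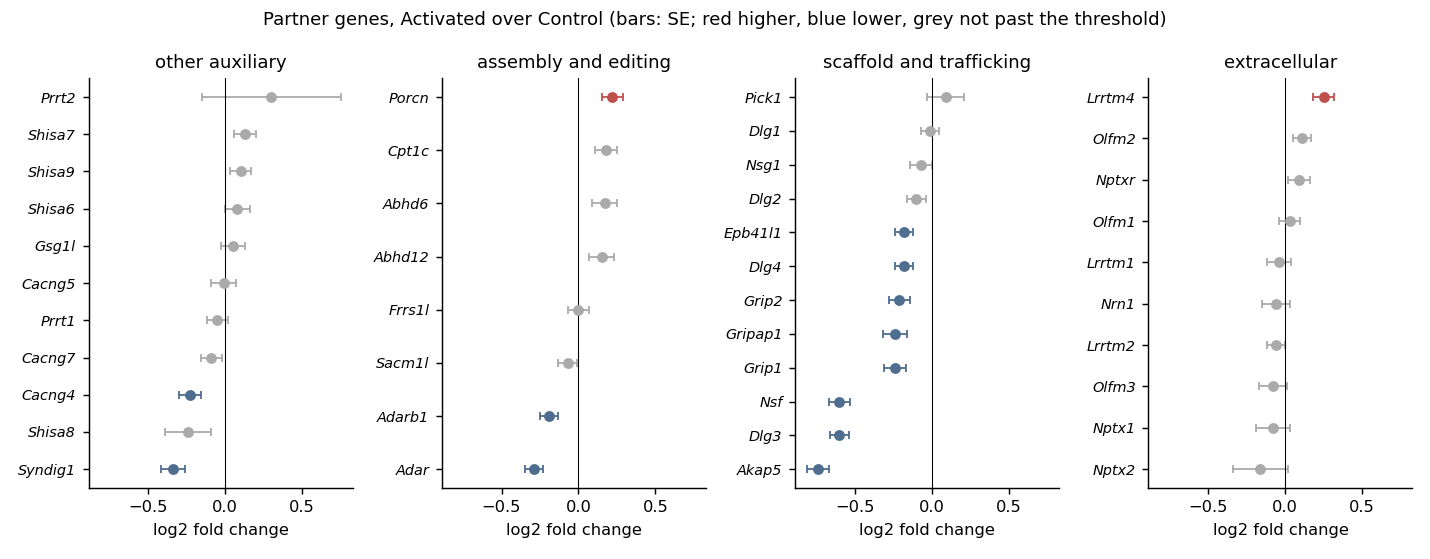
Log2 fold change, Activated over Control, of the 41 partner genes in 4 lists (x axis; bars are SE), with genes that passed the test as higher in red, as lower in blue and the rest in grey. The 8 blue points of the scaffold and trafficking list reach −0.74 at Akap5, and Porcn (0.22) and Lrrtm4 (0.25) are the 2 red points.

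The profile of Gria2 over the 6 libraries was most like that of 5 genes of higher level in Activated libraries, by Pearson correlation of log2 CPM among 9864 genes with a mean log2 CPM of at least 3. These were Ssh3, a cofilin phosphatase gene (r = 0.999), Ston2, an endocytic adaptor gene (0.996), Intu, a planar polarity gene (0.994), Nbeal1 (0.991) and Arhgef1 (0.990). The libraries fall into 2 groups, share the same scaling, and Gria2 differed between the groups, so that difference is part of each r. Their own log2 fold changes were 0.71 for Ssh3, 0.30 for Ston2, 0.44 for Intu, 0.44 for Nbeal1 and 0.43 for Arhgef1.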

How the data were processed

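The authors deposited counts of reads per gene for 6 libraries, in 3 columns (unstranded and each strand). The submitters' processing notes name STAR 2.5.2b, the mm10 build and edgeR as tools used before the files were deposited; parameters and annotation release are not given in the sources used here. The reverse-strand column was used. Lines naming no gene, 42.3% to 50.7% of reads per library, stayed out. GENCODE M21 matched 55144 of 55385 identifiers and gave names, coordinates and lengths.

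Low genes were removed by filterByExpr at a minimum count of 10 and total of 15, and the rest scaled by TMM and tested with the quasi-likelihood test of edgeR 4.0.16 (R 4.3.3) over all 18132 genes, with Benjamini-Hochberg adjustment and a threshold of 0.05. Standard errors were derived from each fold change and its F statistic, and 95% intervals use the test's degrees of freedom. Shares were compared with exact permutation tests over libraries (scipy 1.17.1). On simulated counts the fit was tested for recovery of known changes, all of them larger than those of the members. Recovery of changes as small as the members' was not tested. Alternatives were DESeq2 1.42.0 (size factors, Wald test), other filters, scalings and columns, length and GC offsets (splines, 4 degrees of freedom), a block for replicate number, and leaving out single libraries. The members, lists, named genes and tests were chosen with earlier results of these data known. Named genes were all members, partner genes past the threshold and the 3 of each list with the smallest p, the 2 most abundant markers of each cell type list, 4 rapid activity genes and the 5 genes most like Gria2. Others were named after their values were seen, as non-passing examples or overlapping genes. Some genes that the rule names are not reported here.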

Additional observations from a re-analysis of the deposited data

Results flagged for a closer look

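Cacng8 had few reads on the strand opposite to its own, but a higher CPM in every Activated than in every Control library. They were 4, 9 and 9 reads in Activated and 4, 5 and 7 reads in Control replicates 1, 2 and 3, or at least 0.238 CPM in Activated and at most 0.212 CPM in Control libraries. The difference was not tested, and it rests on 4 to 9 reads a library.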

How the results depend on the processing

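The main counts were 2 members higher and 1 lower, and 2 partner genes higher and 12 lower. Members higher numbered 0 with total counts only and with length and GC offsets, 8 under the neuron marker scaling, and 1 with no low-count filter, with the unstranded column and with the replicate block. Members lower numbered 2 with total counts only and 0 under the neuron marker scaling. Partner genes higher numbered 0 with total counts only and with the offsets, 27 under the neuron marker scaling, 1 with no low-count filter and with the unstranded column, and 5 with a filter of 1 CPM in 3 libraries; partner genes lower numbered 3 under the neuron marker scaling. Leaving out single libraries gave 1 to 2 members higher, 1 lower throughout, 1 to 5 partner genes higher and 5 to 12 lower. Of all tested genes, 8.76% were higher with no low-count filter, 13.8% with the unstranded column, 12% with the replicate block, 12.5% with the offsets and 21.8% with the 1 CPM filter. Under the neuron marker scaling 51.4% of tested genes were higher and 3.11% lower, and with total counts only 11.5% and 25.2%. Without single libraries 10.7% to 17.9% were higher and 15.2% to 21.2% lower. The cause of these moves was not tested.

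The neuron marker scaling raised the median of all genes to 0.37, beside 0.04, and moved all genes by nearly the same amount. Values below the median in the main fit therefore stayed below it, which adds nothing to the main fit. Signs turned for the members Gria1 (0.30), Cacng2 (0.04), Cnih2 (0.22) and Cnih3 (0.21). They also turned for Cacng4 (0.10), Adar (0.03), Adarb1 (0.14), Dlg4 (0.14), Grip1 (0.08), Grip2 (0.12), Gripap1 (0.09), Epb41l1 (0.14) and the oligodendrocyte marker Mbp (0.32). Of these, Dlg4 and Epb41l1 went from lower to passing as higher (edgeR adjusted p = 0.0481 and 0.0463). Gria4, near 0, turned with total counts only (−0.06), no low-count filter (−0.01), the unstranded column (−0.02), the offsets (−0.05) and without Activated replicate 1 (−0.03). Cacng3 turned with total counts only (−0.02) and without Control replicate 2 (−0.01) or Activated replicate 3 (−0.06), and Gria1 (0.01) and Mbp (0.03) with the 1 CPM filter. Without single libraries Gria4 ranged up to 0.05, Cacng3 to 0.15 and Reln to 0.07. Reln turned with total counts only (−0.05), the unstranded column (−0.01), the offsets (−0.01) and without Activated replicate 1 (−0.04), and Mbp without Control replicate 2 (0.06) or Activated replicate 2 (0.06).

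Same-numbered libraries did not deviate together (r = −0.01, −0.18 and −0.21 for numbers 1, 2 and 3), and none correlated best with its own number. With the replicate block the calls of Gria3 (edgeR adjusted p = 0.0569), Adarb1, Dlg4, Grip2, Epb41l1 and the microglia marker Laptm5 were lost. The Gria shares and the auxiliary ratio kept their signs with the unstranded column, the longest transcript length and each library left out. For Gria1, Gria2 and Gria3, whose groups did not overlap, leaving out a library could not turn the sign. The replicate block could not turn any sign, because it leaves these differences unchanged. Length and GC offsets were not run for shares. Without single libraries the Gria1 share differed by −3.85 to −2.76 percentage points, Gria2 by 2.14 to 3.34, Gria3 by 0.80 to 1.29, Gria4 by −0.82 to −0.38, and the log2 ratio by −0.20 to −0.10. The fewest reads behind a member's value were the 682 of Cnih3 in Activated replicate 1.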

Other observations

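Microglia, oligodendrocyte lineage, and endothelial, mural and fibroblast markers were scarcer than neuron markers. Summed microglia markers, among them Laptm5, were 72.7 to 139 CPM in Activated and 59.7 to 82.1 CPM in Control libraries, with 8 of 13 tested higher. For only 1 of the 13 did every Activated library lie above every Control library, as for 22.6% of all tested genes. Laptm5 (log2 fold change 0.72) lost its call without Activated replicate 3 (0.34) or Control replicate 2 (0.81) or 3 (0.54). Oligodendrocyte lineage markers, led by Olig1 and Mbp, summed to 80.6 to 91.5 CPM in Activated and 62.7 to 67.3 CPM in Control libraries, with 4 of 8 tested higher and Gpr17 at 0 in all libraries. Endothelial, mural and fibroblast markers, led by Fn1 and Col1a1, summed to 386 to 442 CPM in Activated and 250 to 277 CPM in Control libraries, with 8 of 13 tested higher. None of these lists had a gene that passed as lower, where 16.2% of all tested genes were higher and 20.6% lower. What part these cell types had in the AMPA receptor results was not tested.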
